A study of Mus musculus with 6 samples.

Results

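Genes of 10 receptors that steer lymphocytes, 9 chemokine receptors and the sphingosine 1-phosphate (S1P) receptor S1pr1, were followed in sorted mouse lung ILC2s cultured with or without TNFa. They were chosen by name as receptors of lymphocyte trafficking, with earlier results of these data already known, and all 10 were found among the 21825 genes of the deposited table. ILC2s, group 2 innate lymphoid cells, are tissue lymphocytes without a rearranged antigen receptor that make type 2 cytokines. In both groups they came from lungs of 6-week-old BALB/c mice given 3 intraperitoneal doses of 1 µg IL-33, the alarmin that expands these cells, and were then kept in culture for 48 h with 10 ng/mL each of the survival cytokines IL-2 and IL-7. The PBS group (replicates 1 to 3) received vehicle and the TNFa group (replicates 4 to 6) received recombinant mouse TNFa at 40 ng/mL. All values therefore describe cells activated in the animal and then cultured, not resting lung cells. Libraries held 25089415 to 32487004 counts assigned to genes. Nothing in the labels tells separate cultures or mice from repeat samples within a group, so each p-value reflects the scatter of these 6 libraries, which may be technical.

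Chemokine receptors are receptors with a bundle of membrane-spanning helices that signal mainly through the inhibitory G protein Gi and move a cell up a gradient of secreted chemokine. In lymphocytes each receptor is tied to a route: Ccr7 to lymphatics and lymph nodes, Ccr9 to the gut, Ccr4 and Ccr8 to skin and sites of type 2 inflammation, Cxcr6 to resident positions in lung and liver, and Ccr1, Ccr2 and Cxcr3 to inflamed tissue. S1pr1 senses S1P, a lipid that is abundant in blood and lymph, and is needed for lymphocytes to leave tissue, while Cxcr4 and its ligand Cxcl12 hold cells in bone marrow and other niches.

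TNFa replicate 5 stood apart from the rest: its mean correlation with the other libraries (log2 CPM) was 0.949 against 0.964 to 0.967, and it scored 90.4 on the component holding 35.6% of the variance, where the others lay between -22.6 and -14.5. Results are therefore given with and without it where it matters. PBS replicate 2 is marked as a repeat in its label. Of 11 defining ILC2 markers, Il5 was at 4009 to 5796 CPM (the usual count unit relative to library size, with TMM scaling between libraries) over both groups and Il2ra at 1711 to 2381. Named after their values were seen, Gata3 was at 646.5 to 1034 and Il1rl1 at 367 to 691, while Thy1 reached only 2.32 to 4.52. By the edgeR test described below, none of the 11 passed an adjusted p of 0.05. An unadjusted p under 0.05 was found for 7 of them, against 8.31% of all tested genes. Of these 7, Gata3, Il1rl1 and Klrg1 were lower with TNFa, and Il5, Il2ra, Il13 and Areg were higher.

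Cxcr6 was by far the leading receptor transcript. Scaled to gene length (CPM per kilobase of merged exons, mean ± SD, n = 3), its level was 855 ± 53.8 with PBS and 712 ± 72.1 with TNFa, and with PBS it was higher than 99.8% of tested genes with a known length. Ccr8 followed with a length-scaled level of 73.2 ± 0.372 with PBS and 61.1 ± 5.24 with TNFa. In the PBS libraries the order then ran Ccr2 (length-scaled level 59.5 ± 4.84), Ccr7 (28.2 ± 4.67), Ccr4 (17.5 ± 3.48), Ccr1 (15.1 ± 1.31) and S1pr1 (8.08 ± 1.23). Cxcr4, Cxcr3 and Ccr9 closed the list with length-scaled PBS means of 0.943, 0.834 and 0.291, below 1 in each case. Within PBS, the neighbours Ccr4 and Ccr1 overlapped between libraries, as did Cxcr4 and Cxcr3, and all other neighbours in the order were separate.

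With TNFa, Ccr7 and Ccr2 exchanged places in that order. The length-scaled level of Ccr7 was 47.5 to 51.8 and that of Ccr2 38.2 to 41.3, without overlap, and Ccr4 (22.2 to 32.4) was separate from Ccr1 (12.4 to 13.8). The order of PBS means was the same for all 10 genes when the longest transcript replaced merged exons. The separation of neighbours, however, holds for merged exons only. Ccr2 has 6760 bases of merged exons against 5728 in its longest transcript. At the shorter length its libraries would overlap those of Ccr8 with PBS and those of Ccr7 with TNFa. Ccr9 is the least certain level, because its annotated gene spans several isoforms with 10260 bases of merged exons against 5197 in the longest transcript. Of the summed CPM of the 10 genes, Cxcr6 took 70.4% to 72.1% with PBS and 68.7% to 70.2% with TNFa, and Ccr2 16.8% to 18.1% and 13.2% to 14.6%.

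**Figure D1:**
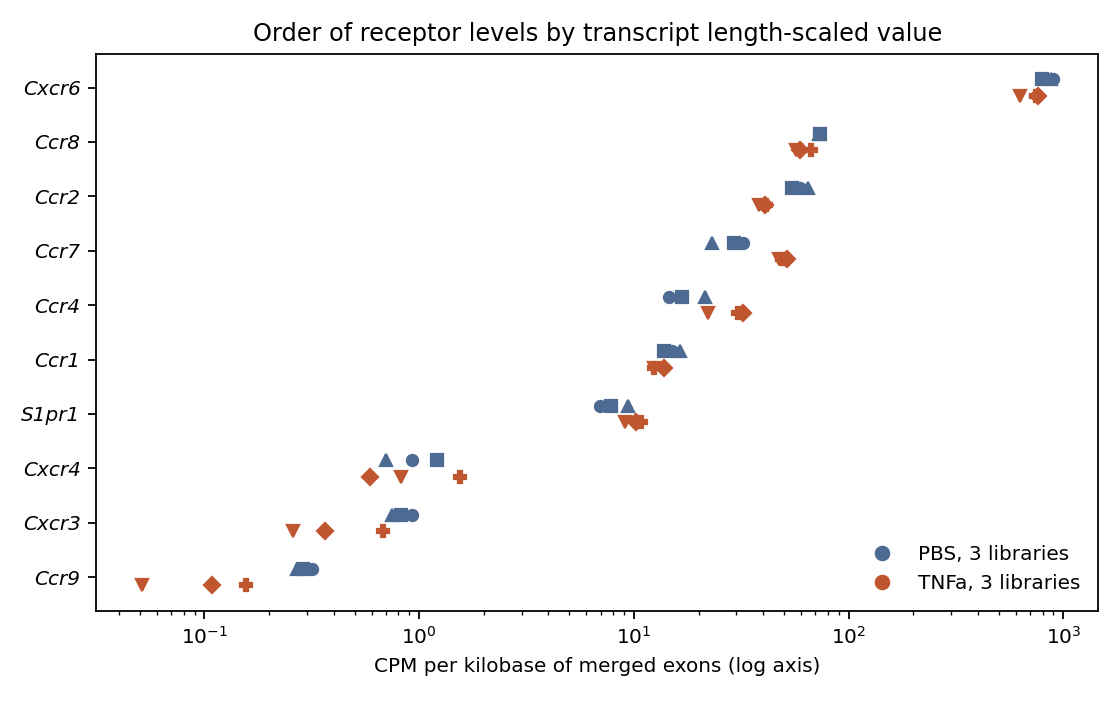
Length-scaled level of each receptor transcript (CPM per kilobase of merged exons, log axis) in the 3 PBS libraries (blue) and the 3 TNFa libraries (orange), 1 point per library, ordered by the PBS mean. Cxcr6 lies above all others, Ccr7 passes Ccr2 in the TNFa libraries, and Cxcr4, Cxcr3 and Ccr9 lie between 0.051 and 1.56.

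The comparison asked how the receptor transcripts differed between TNFa and vehicle. None of the 10 passed an adjusted p of 0.05 in edgeR's quasi-likelihood test, where 16 of 15719 tested genes (0.102%) passed, 14 of them higher with TNFa (0.0891%) and 2 lower (0.0127%). By that same test 6 of 10 had an unadjusted p under 0.05, 2 higher and 4 lower with TNFa, against 8.31% of all tested genes (3.68% higher, 4.63% lower). DESeq2 called 3 of them (Ccr7 and Ccr4 higher, Ccr2 lower; 1.39% of all genes called), limma-voom called 0 (0.07% of all genes), and edgeR without TNFa replicate 5 called the same 3 genes (0.406% of all genes). The groups did not overlap for 7 of 10, 2 higher and 5 lower with TNFa, against 15.2% of all tested genes (6.85% higher, 8.35% lower). Because the genes were chosen with results known, these shares describe the 10 and are no independent evidence. The median log2 fold change was -0.24 over the 10 and 0 over all tested genes. In bulk RNA, fewer cells that carry a transcript and less of it per cell cannot be told apart, which holds for every gene below.

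**Figure D2:**
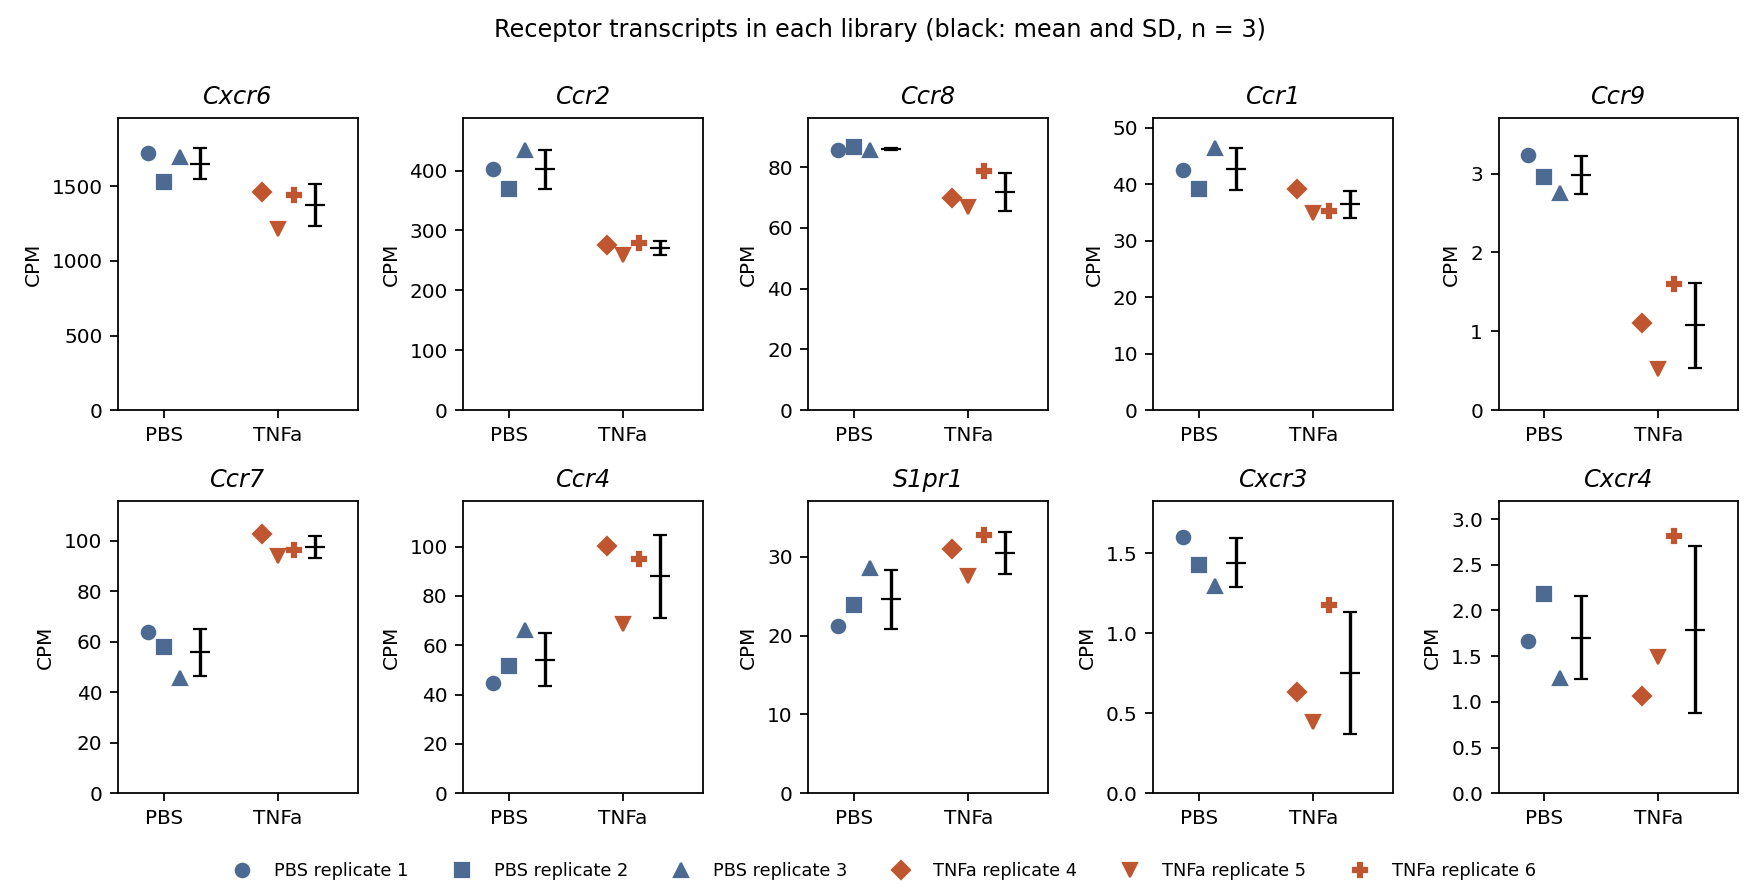
CPM of each receptor transcript in each of the 6 libraries, 1 panel per gene with its own axis from 0, black marks showing mean and SD of 3 libraries. The 3 TNFa libraries lie above all PBS libraries for Ccr7 and Ccr4, below them for Ccr2, Cxcr6, Ccr8, Ccr9 and Cxcr3, and overlap them for Ccr1, S1pr1 and Cxcr4.

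Among receptors tied to tissue residence and type 2 sites, Ccr4 stood against Cxcr6 and Ccr8. Ccr4 (mm10, chromosome 9, 114490316 to 114504916, minus strand), the receptor for Ccl17 and Ccl22 on cells of type 2 immunity, was at 44.9, 51.6 and 66.0 CPM with PBS and 100.1, 68.7 and 94.9 with TNFa. All 3 TNFa libraries were above all 3 PBS libraries, but TNFa replicate 5 exceeded the highest PBS library only narrowly. The fitted level was 1.62-fold higher (95% interval 1.22 to 2.16; log2 fold change 0.70 ± 0.18, SE) with an edgeR adjusted p of 0.3. Without TNFa replicate 5 the log2 fold change of Ccr4 was 0.85 ± 0.15 and its adjusted p 0.039, and DESeq2 on all 6 libraries gave 0.024.

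Ccr8 (chromosome 9, 120092114 to 120094906, plus strand), whose ligands include Ccl1 and Ccl8, held 85.6, 86.5 and 85.8 CPM with PBS and 69.8, 66.8 and 78.6 with TNFa. The PBS libraries agreed closely and every TNFa library was below them, for a log2 fold change of -0.26 ± 0.11 (adjusted p = 0.57). Cxcr6 (chromosome 9, 123806475 to 123811760, plus strand), the receptor for Cxcl16, was at 1726, 1532 and 1694 CPM with PBS and 1464, 1214 and 1445 with TNFa. Its groups were likewise separate, with the lowest value in TNFa replicate 5, and the difference was of the same size (-0.26 ± 0.11, adjusted p = 0.53). Leaving out that library moved Cxcr6 to -0.18 ± 0.08 and Ccr8 to -0.21 ± 0.10 on the log2 scale, neither of which passed.

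Of the 10 genes, those tied above to inflamed tissue (Ccr2, Ccr1 and Cxcr3) all had lower means with TNFa. Ccr2 (chromosome 9, 124101950 to 124113557, plus strand), the receptor for Ccl2 and related chemokines, was at 402, 369.6 and 435 CPM with PBS and 275, 258 and 279 with TNFa. The gap between the lowest PBS and the highest TNFa library was wider than the range of either group. Its fitted level was 1.48-fold lower (95% interval 1.27 to 1.74) with a log2 fold change of -0.57 ± 0.10 and an adjusted p of 0.1, ranking 37 of 15719 genes by p-value. Ccr2 passed without TNFa replicate 5 (-0.54 ± 0.09, adjusted p = 0.033) and in DESeq2 (adjusted p = 0.00011). Ccr2 is also a classical monocyte gene, so monocyte and macrophage markers were set beside it. All 8 of these had counts, their sum was 51.1 to 111 CPM with PBS and 38.8 to 65.5 with TNFa, and in every library it was below the level of Ccr2 alone. PBS replicate 2 had the highest marker sum and the lowest Ccr2 of its group. The most abundant of them, Chil3, was at 17.7 to 56.9 CPM with PBS and at 33.1, 21.3 and 0 with TNFa, and Ly6c2 was at 9.68 to 12.1 and 10.1 to 23.4. Named after their values were seen, 2 of the 8 were lower with TNFa, as Ccr2 was, at an unadjusted p under 0.05. Of all tested genes, 4.63% were lower at that level. Adgre1 was at 0.511, 1.803 and 1.99 CPM with PBS and 0.277, 0.262 and 0.514 with TNFa (log2 fold change -2.01 ± 0.68), and Lyz2 at 12.5, 24.1 and 12.3 against 6.01, 14.4 and 5.48 (-0.92 ± 0.41), both with overlap. The rest of the list was split in direction, with no gene at that level. Cd68 and Chil3 had lower means with TNFa. Csf1r, Cd14, Ly6c2 and Itgam had higher ones (log2 fold changes 1.38 ± 1.11, 0.90 ± 0.56, 0.52 ± 0.30 and 0.22 ± 0.68). The part of monocytes and macrophages in the Ccr2 result was not tested.

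Ccr1 (chromosome 9, 123962124 to 123968692, minus strand), a receptor for Ccl3 and Ccl5, was at 42.5, 39.1 and 46.4 CPM with PBS and 39.1, 35.0 and 35.2 with TNFa. The groups met at PBS replicate 2 and TNFa replicate 4, and the log2 fold change was -0.23 ± 0.14 (95% interval -0.53 to 0.07, adjusted p = 0.72). Cxcr3 (chromosome X, 101731535 to 101734269, minus strand), the receptor for Cxcl9 and Cxcl10 on type 1 lymphocytes, rested on 41 to 47 counts per library with PBS and 16, 12 and 39 with TNFa. In CPM these were 1.60, 1.43 and 1.30 against 0.632, 0.449 and 1.18, which did not overlap, although TNFa replicate 6 came close to PBS. The log2 fold change of Cxcr3 was -0.93 ± 0.54 (adjusted p = 0.71), and without TNFa replicate 5 it was -0.66 ± 0.55.

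Among receptors of lymphatic exit, homing and niche retention, Ccr7 showed the clearest difference. Ccr7 (chromosome 11, 99144196 to 99155077, minus strand), which guides cells to Ccl19 and Ccl21 in lymphatics and lymph nodes, was at 63.9, 57.9 and 45.8 CPM with PBS and 102.5, 93.9 and 96.4 with TNFa. Every TNFa library exceeded every PBS library, and TNFa replicate 5 was close to TNFa replicate 6. The fitted level was 1.75-fold higher (95% interval 1.41 to 2.17), with a log2 fold change of 0.81 ± 0.14 and an adjusted p of 0.1, ranking 32 of 15719 by p-value. It passed in DESeq2 (adjusted p = 9.2e-05), without TNFa replicate 5 (0.034) and with only genes of at least 5 CPM in 3 libraries tested (0.035).

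Ccr7 is also a marker of T cells, B cells and migrating dendritic cells. The 7 T cell markers, led by Cd3g (39.9 to 46.4 CPM with PBS, 36.0 to 50.4 with TNFa) and Cd3e, summed to 86.7 to 95.1 CPM with PBS and 75.5 to 83.0 with TNFa, and the 4 B cell markers, led by Cd79b and Ms4a1, to 20.2 to 20.6 and 13.8 to 16.5. Both sums were lower in every TNFa library (exact permutation test, two-sided p = 0.1 for each, the smallest that 3 against 3 allow), where Ccr7 was higher. Of the 5 dendritic cell markers, Flt3 never passed 0.127 CPM, Itgax was at 1.94 to 3.64 CPM with PBS and at 5.69, 0 and 0 with TNFa, and Cd209a was not analysed here. Their sum was 37.9 to 44.1 CPM with PBS and 23.2 to 33.2 with TNFa, most of it the chemokine receptor gene Xcr1. Zbtb46, a marker of conventional dendritic cells named after its values were seen, was low but shared the direction of Ccr7, at 0.190 to 0.716 CPM with PBS and 0.748 to 1.30 with TNFa. The part of these cells in the Ccr7 result was not tested.

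S1pr1 (chromosome 3, 115710433 to 115715072, minus strand) was at 21.2, 24.0 and 28.7 CPM with PBS and 31.1, 27.6 and 32.8 with TNFa. Only PBS replicate 3 reached into the TNFa range, where it exceeded TNFa replicate 5. Its log2 fold change was 0.31 ± 0.17 (95% interval -0.06 to 0.68, adjusted p = 0.69), and 0.37 ± 0.17 without TNFa replicate 5. Cd69 and Klf2 were named after their values were seen. Cd69, whose protein binds S1pr1 and removes it from the surface, was at 62.9 to 78.3 CPM with PBS and 60.5 to 82.1 with TNFa. Klf2, a transcription factor known to drive S1pr1 in lymphocytes, was at 15.2, 15.7 and 9.91 CPM with PBS and 8.42, 8.52 and 9.71 with TNFa, opposite in direction to S1pr1 (log2 fold change -0.61 ± 0.24, adjusted p = 0.51).

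The 2 remaining receptors were sparse. Ccr9 (chromosome 9, 123678439 to 123784330, plus strand), the receptor for the gut chemokine Ccl25, had 95, 87 and 87 counts with PBS and 28, 14 and 53 with TNFa, or 3.24, 2.96 and 2.75 against 1.11, 0.523 and 1.60 CPM. The groups were separate and TNFa replicate 5 was lowest. Its log2 fold change, -1.46 ± 0.48, was the largest of the 10 in size but not in evidence (adjusted p = 0.42), and without TNFa replicate 5 it was -1.13 ± 0.43. Of the 50-base words in Ccr9 transcripts, 20.1% also occur in transcripts of other genes, most of them in a gene that overlaps it on the opposite strand. Whether the authors' counting used strand is not stated, so reads of Ccr9 and of that gene may be mixed. Cxcr4 (chromosome 1, 128588199 to 128592293, minus strand) had 49, 64 and 40 counts with PBS and 27, 40 and 93 with TNFa. In CPM it was 1.67, 2.18 and 1.27 against 1.07, 1.495 and 2.81, with both the lowest and the highest library in the TNFa group. Its log2 fold change of 0.08 ± 0.49 (95% interval -1.02 to 1.18, adjusted p = 0.98) had the opposite sign without PBS replicate 3 (-0.10) or TNFa replicate 6 (-0.41), so no direction can be given at this depth.

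**Figure D3:**
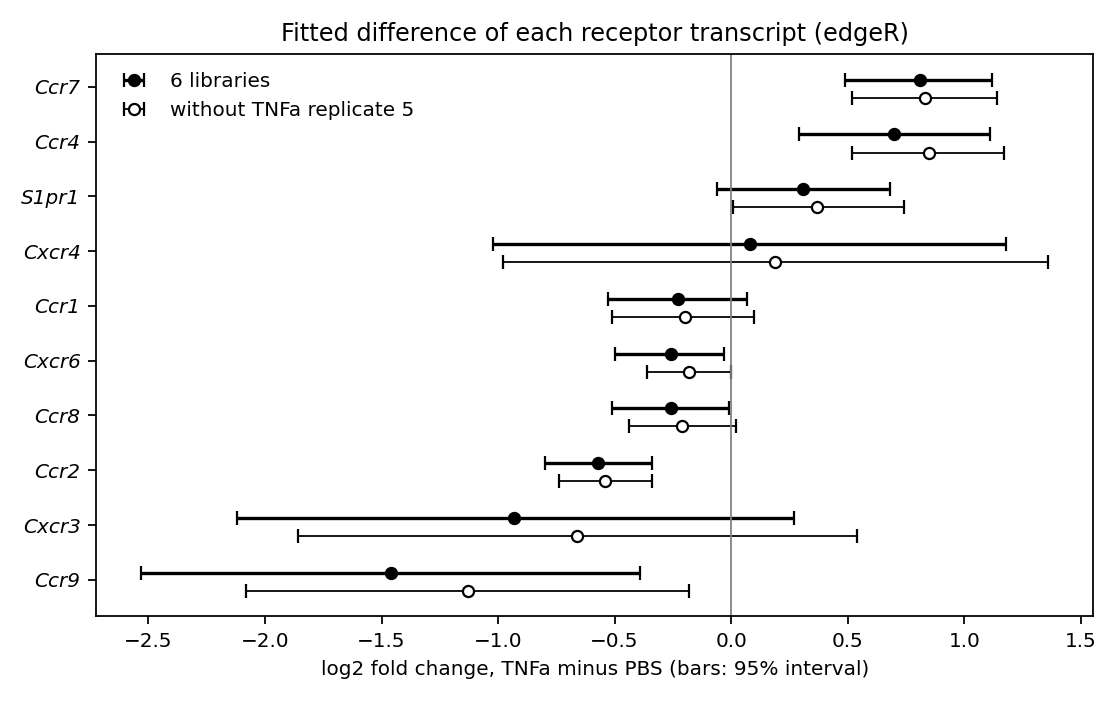
Log2 fold change, TNFa minus PBS, of each receptor transcript in edgeR, with 95% intervals, from all 6 libraries (filled) and without TNFa replicate 5 (open). The intervals, not adjusted for the number of genes, lie right of 0 for Ccr7 and Ccr4 and left of it for Ccr2 and Ccr9 in both fits. Those of Ccr1, Cxcr4 and Cxcr3 span 0 in both. For Cxcr4 and Cxcr3 they reach beyond 1 log2 unit on 1 side or both.

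Ratios of counts within a library need no scaling between libraries. For pairs chosen after their values were seen, and therefore without a test, Ccr7 counts were 0.105 to 0.159 of Ccr2 counts with PBS and 0.346 to 0.372 with TNFa. Ccr4 counts were 0.524 to 0.770 of Ccr8 counts with PBS and 1.03 to 1.43 with TNFa, so in these counts, not scaled to length, Ccr4 lay under Ccr8 in every PBS library and over it in every TNFa library. The ratio of Ccr2 to Cxcr6 was 0.233 to 0.257 with PBS and 0.188 to 0.213 with TNFa. The groups were separate for all 3 pairs. TNFa replicate 5 was the TNFa library nearest to PBS for the last 2 pairs, and TNFa replicate 6 for Ccr7 and Ccr2.

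Position is a feature that the choice by name did not use. Of the 10 genes, 6 lie on chromosome 9, and 4 of them, Ccr9, Cxcr6, Ccr1 and Ccr2, sit in a cluster of 435 kb (mm10, 123678439 to 124113557) with Xcr1 and Ccr3. All 6 of these receptor genes had lower means with TNFa. Because 4 of them were chosen with results known, and Ccr9 and Ccr2 bound the interval, this is no independent evidence. Xcr1, the receptor for Xcl1 and otherwise known from cross-presenting dendritic cells, was at 41.3, 34.8 and 36.3 CPM with PBS and 26.3, 22.4 and 24.8 with TNFa, without overlap (log2 fold change -0.61 ± 0.15, adjusted p = 0.27; DESeq2 0.013). Ccr3, the eotaxin receptor of eosinophils, was at 3.78, 3.54 and 6.77 CPM and 3.91, 2.58 and 3.27, with overlap (-0.53 ± 0.37, adjusted p = 0.75).

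Between the receptors lie protein-coding genes of other families. Lztfl1, a cilium-related gene inside the annotated span of Ccr9, was at 18.5 to 24.7 CPM with PBS and 25.6 to 27.2 with TNFa, higher in every TNFa library and as far from 0 as Ccr1 in the other direction (log2 fold change 0.24 ± 0.17, adjusted p = 0.75). Fyco1, an adaptor of autophagosome transport that contains Cxcr6 in an intron on the other strand, was at 24.5 to 35.2 and 23.7 to 38.1 CPM (-0.08 ± 0.22, adjusted p = 0.95). Of the other 4 genes in the interval, the pseudogene Gm10052 was tested and lay under 1 CPM in every library (-0.63 ± 1.27, adjusted p = 0.93), and Gm17021, Gm2774 and the receptor-like gene Ccr1l1 were too low to test. Of the 2 chromosome 9 receptors outside the cluster, Ccr4 was higher and Ccr8 lower with TNFa.

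**Figure D4:**
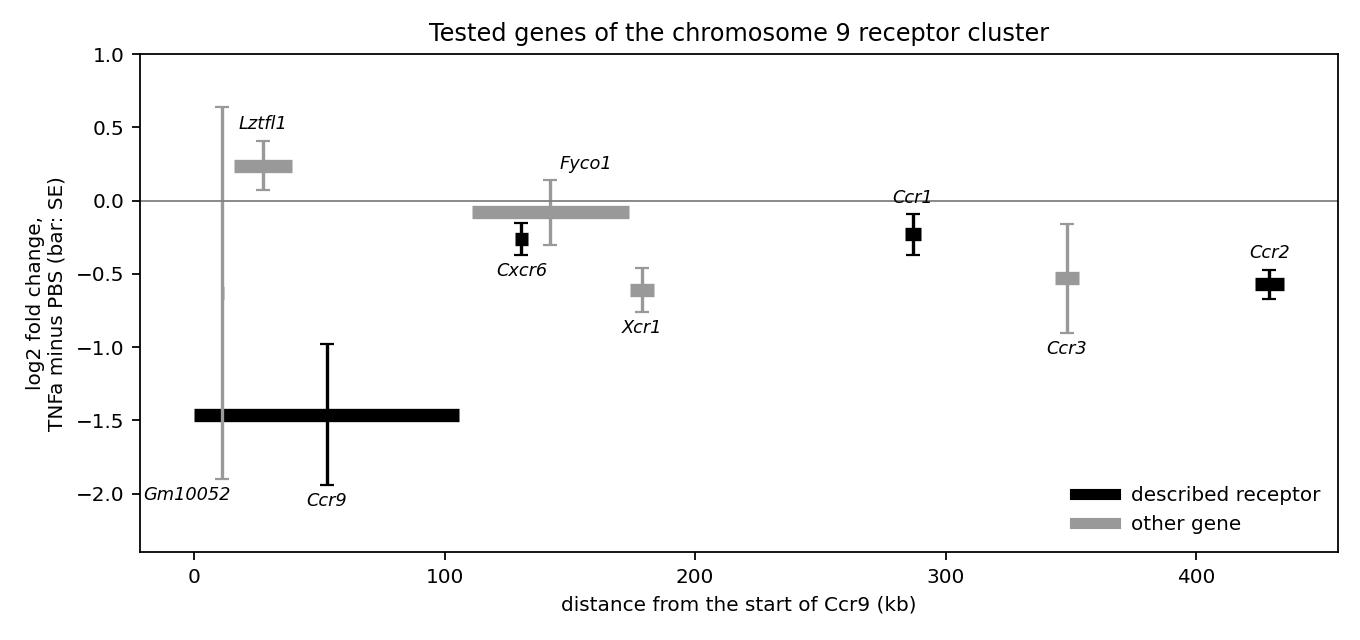
Log2 fold change, TNFa minus PBS, with SE, of the 9 tested genes between Ccr9 and Ccr2, each drawn as a bar over its extent in kb from the start of Ccr9; black marks the receptors described here and grey the other genes. The receptor genes lie below 0, Lztfl1 lies above it and Fyco1 is close to it.

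Start-site windows from RefSeq (GRCm38.p6, 250 bases before to 50 after the start) were matched for 8 of the 10 genes; Ccr7 and S1pr1 were not matched. They were searched on both strands for the AP-1 motif TGACTCA, the GATA motif AGATAA, the KLF motif CCACCC and the kappa B consensus of NF-kB. Of 32851 windows of that length, these motifs occur in 5.2%, 11.2%, 31.5% and 8.5%. The windows of Ccr4, Ccr2 and Ccr8 are shown because these genes gave the opposite directions above and hold matches, printed in capitals. Each window is read 5′ to 3′ on the strand of its gene, so a match on the other strand appears as its reverse complement.
Ccr4, chr9:114496495-114496794, minus strand: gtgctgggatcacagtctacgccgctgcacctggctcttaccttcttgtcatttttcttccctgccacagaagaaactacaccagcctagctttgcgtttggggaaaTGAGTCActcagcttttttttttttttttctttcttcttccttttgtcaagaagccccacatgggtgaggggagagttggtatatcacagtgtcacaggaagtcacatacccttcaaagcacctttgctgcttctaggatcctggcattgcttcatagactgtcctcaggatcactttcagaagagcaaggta
Ccr2, chr9:124101933-124102232, plus strand: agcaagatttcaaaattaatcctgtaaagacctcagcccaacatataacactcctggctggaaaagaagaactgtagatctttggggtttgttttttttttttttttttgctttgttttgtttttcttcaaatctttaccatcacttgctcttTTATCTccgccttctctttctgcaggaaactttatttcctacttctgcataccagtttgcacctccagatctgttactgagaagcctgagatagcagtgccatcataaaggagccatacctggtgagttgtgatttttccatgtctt
Ccr8, chr9:120091883-120092182, plus strand: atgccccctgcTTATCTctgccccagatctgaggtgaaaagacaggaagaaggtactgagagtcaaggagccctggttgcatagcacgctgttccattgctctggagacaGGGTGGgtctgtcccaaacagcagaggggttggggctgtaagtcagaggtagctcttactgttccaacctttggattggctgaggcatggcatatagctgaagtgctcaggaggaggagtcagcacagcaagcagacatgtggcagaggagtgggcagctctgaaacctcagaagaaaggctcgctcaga
The capitals in Ccr4 are an AP-1 match at -143 to -137 from the start. In Ccr2 they are a GATA match at -97 to -92, and in Ccr8 a GATA match at -239 to -234 and a KLF match at -140 to -135. The sole kappa B match among the 8 windows was in Ccr1, at -74 to -65, and Ccr9 held a KLF match at -74 to -69. No match was found in the windows of Cxcr6, Cxcr3 and Cxcr4. The RefSeq start of Ccr4 lies 8372 bases inside the annotated gene and that of Ccr9 88772 bases inside, and which start these cells use was not measured. Gata3 itself was at 1003, 1034 and 897 CPM with PBS and 746, 646.5 and 722 with TNFa (log2 fold change -0.47 ± 0.10, adjusted p = 0.2). Whether Gata3 or any of these matches has a part in the receptor levels was not tested.

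Other genes of chemoattractant sensing were read from 7 lists holding 84 genes, of which 64 were tested. The lists were chosen with earlier results of these data known, so shares within them are no independent evidence. By edgeR none of the 64 passed, 4 were higher and 12 lower at an unadjusted p under 0.05 (3.68% and 4.63% of all tested genes), DESeq2 called 4 (1.39% of all) and limma-voom 0 (0.07% of all). Of 6 other chemokine receptors tested, 1 was lower at an unadjusted p under 0.05 and the median log2 fold change was -0.08. That gene was Xcr1, given above. Cxcr2, a receptor of inflammatory recruitment named after its values were seen, went the other way without overlap. It was at 2.28 to 3.30 CPM with PBS and 3.60 to 5.68 with TNFa (log2 fold change 0.74 ± 0.34, adjusted p = 0.62). The atypical receptors had 1 tested gene, Ccrl2, at 2.28 to 2.86 CPM with PBS and 2.06 to 3.30 with TNFa. The 9 tested genes of other S1P receptors and S1P metabolism had 0 at that level and a median of -0.15. Their most abundant, the S1P lyase gene Sgpl1 and the phosphatase gene Sgpp1, were at 82.9 to 98.9 and 56.3 to 60.2 CPM with PBS. With TNFa both were lowest in replicate 5, at 61.6 and 24.3 CPM, and Sgpl1 was otherwise at 91.3 and 99.1 and Sgpp1 at 63.9 and 59.8. The receptor gene S1pr4, named after its values were seen, was at 20.6, 19.9 and 18.9 CPM with PBS and 15.9, 18.1 and 16.8 with TNFa, without overlap and opposite in direction to S1pr1 (log2 fold change -0.23 ± 0.16, adjusted p = 0.76).

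The 23 genes of receptor coupling and desensitisation, all tested, had a median log2 fold change of -0.25, with 8 lower (34.8%) and 1 higher at an unadjusted p under 0.05, where 4.63% and 3.68% of all tested genes were lower and higher. Gnai2, the main Gi subunit of lymphocytes, was at 994, 974 and 848.5 CPM with PBS and 753, 858 and 784 with TNFa (-0.23 ± 0.10, adjusted p = 0.59). Cdc42, a small GTPase of cell polarity, was at 925 to 1028 and 852.5 to 956.5 CPM (-0.14 ± 0.10, adjusted p = 0.74). Named after their values were seen, the receptor kinase gene Grk6 (217.9 to 232 against 138 to 184 CPM, -0.47 ± 0.12, adjusted p = 0.3) and the phosphoinositide 3-kinase gene Pik3cg (171.5 to 199 against 119 to 150.0 CPM, -0.48 ± 0.12, adjusted p = 0.29) had no overlap, and DESeq2 gave 0.047 and 0.035. Rgs16, which shortens Gi signals and was likewise named after its values were seen, was the 1 higher gene, at 0.511 to 0.680 CPM with PBS and 1.33 to 3.44 with TNFa (1.81 ± 0.54, adjusted p = 0.38).

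Of 8 regulators of egress genes, Klf2 and Ahr were lower at an unadjusted p under 0.05 (25%, against 4.63% of all tested genes). The median was 0. The most abundant were Hif1a, at 581 to 771 CPM with PBS and 593 to 880.0 with TNFa, and the IL-7 receptor gene Il7r, at 82.4 to 113.6 and 87.0 to 106.4. For the 12 tested ligand genes of these receptors, the median log2 fold change was 0.12. At an unadjusted p under 0.05, 3 were higher (25%, against 3.68% of all tested genes). They were Cxcl10 (0.170 to 0.612 against 2.39 to 5.23 CPM, adjusted p = 0.097; 0.027 without TNFa replicate 5), Ccl5 (2.42 to 3.83 against 5.10 to 8.48 CPM, 0.39) and Cxcl16, the ligand of Cxcr6 (0.648 to 1.05 against 1.51 to 3.55 CPM, 0.43), named after their values were seen. The most abundant ligands, Ccl3 and Ccl9, were at 7.09 to 11.3 and 6.91 to 9.72 CPM with PBS and 6.39 to 12.4 and 7.55 to 12.9 with TNFa.

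**Figure D5:**
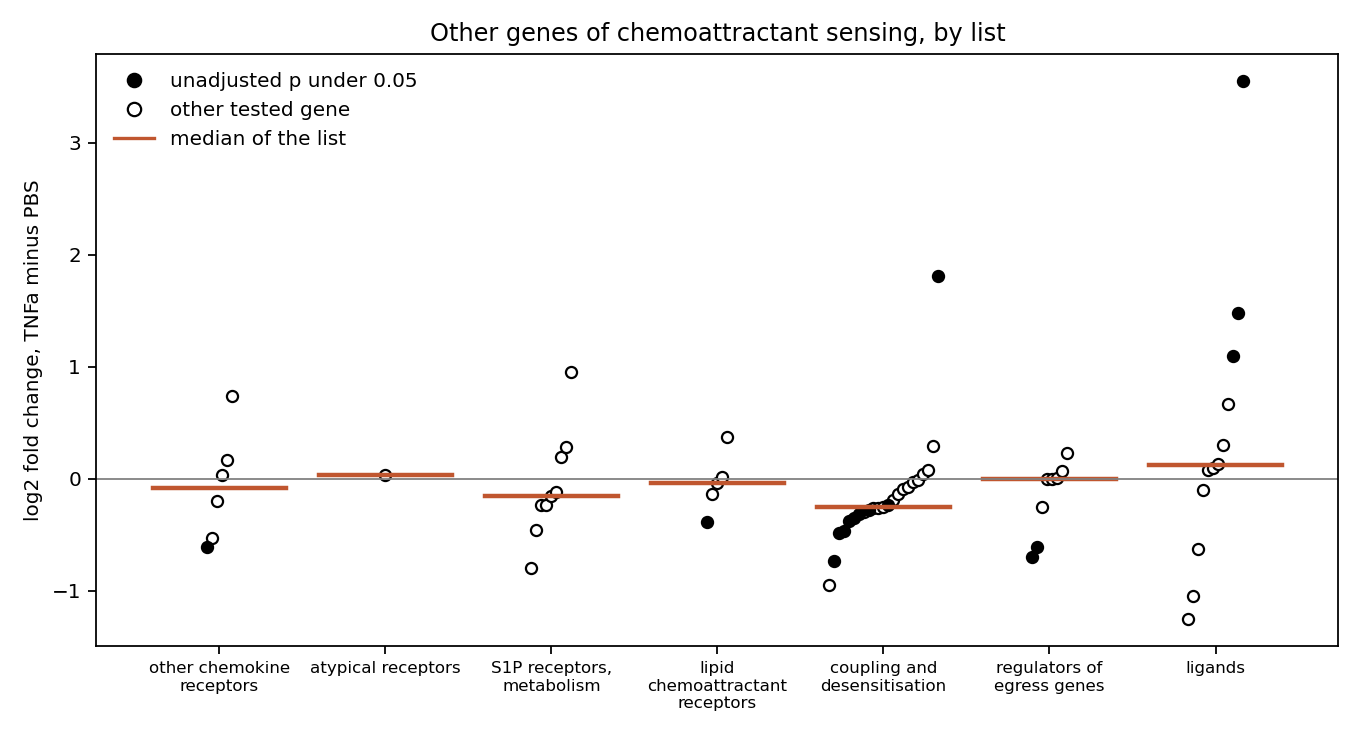
Log2 fold change, TNFa minus PBS, of each tested gene in the 7 lists, filled where the unadjusted p was under 0.05, with the median of each list as an orange line. The points of coupling and desensitisation lie mostly below 0 (median -0.25), and 3 ligand genes lie above 1.

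Markers of further cell types were summed in each library. Mast cell and basophil markers were abundant and alike in both groups, 1312 to 1453 CPM with PBS and 1360 to 1551 with TNFa, led by the proteases Tpsab1 (633 to 764 and 717 to 821.5) and Cma1 (198.5 to 251 and 208 to 241). Natural killer and type 1 innate lymphocyte markers reached 4.78 to 5.90 and 2.84 to 7.23 CPM, with Ncr1 and Prf1 leading and Klrb1c and Eomes under 1 throughout. Eosinophil markers were uneven, at 4.36 to 7.62 CPM with PBS and 24.2, 55.4 and 3.66 with TNFa, from Prg2 and Epx in replicates 4 and 5, while Ccr3 was not higher there. Lung structural markers were at 119 to 153 and 142 to 198 CPM, with Pecam1 at 76.7 to 145 over all libraries, and Scgb1a1 at 0.0341 to 8.07 CPM with PBS and 81.0, 0.187 and 46.1 with TNFa. Epcam, an epithelial marker named after its values were seen, was at 26.2 to 29.2 CPM with PBS and 13.3 to 15.4 with TNFa (log2 fold change -0.95 ± 0.16, adjusted p = 0.088). The part of these cells in the receptor values was not tested.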

How the data were processed

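The deposited values are estimated counts for each gene, which the file's name and header attribute to Partek (an expectation-maximization step against an annotation). CASAVA 1.8.2, STAR and mm10 are further entries in the submitters' processing notes, with no role stated. Which annotation release and strand setting were used is unknown here. The table had 0 further value columns.

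After rounding, TNFa was compared with PBS by the robust quasi-likelihood test of edgeR 4.0.16 (R 4.3.3), with TMM scaling, filterByExpr (minimum count 10, minimum total 15, leaving 15719 genes) and Benjamini-Hochberg adjustment over all genes tested. SE and intervals derive from the F statistic. CPM are TMM-scaled. The fit was tested on simulated data. Lengths came from GENCODE M21 of the same build, where 21357 genes matched by name and start. Alternatives used DESeq2 1.42.0, limma 3.58.1, other scalings and filters, and each library left out. The chromosome 9 cluster was bounded by Ccr9 and Ccr2, because Ccrl2, its planned end, lies elsewhere on that chromosome. Receptor proteins were not analysed here. Named genes are all 10 receptors, the cluster's genes, the 2 most abundant of each list and any called; others are marked in the text, and 1 gene under this rule is not reported here. Members and lists were chosen with earlier results of these data known. Library pairs within a group differed beyond counting noise, with chi-square over degrees of freedom of 15.1 to 115.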

Additional observations from a re-analysis of the deposited data

How the results depend on the processing

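With DESeq2 in place of edgeR, 218 genes were called in all, 3 of the 10 receptor genes and 4 of the listed pathway genes (Xcr1, Grk6 and Pik3cg lower, Cxcl10 higher). Without a filter on low counts 3 genes were called in all, and with at least 5 CPM in 3 libraries 25, of which Ccr7 was the 1 receptor gene; Ccr9, Cxcr3 and Cxcr4 are not tested there. Leaving out 1 library at a time gave 1 to 67 called genes, 0 to 3 called receptor genes and 0 to 1 called list gene, the highest of each without TNFa replicate 5. Over the alternatives run, 9 of the 10 receptor genes kept their direction, the exception being Cxcr4, at -0.10 without PBS replicate 3 and -0.41 without TNFa replicate 6, with 0.34 as its highest value; the cause was not tested. Log2 fold changes ranged from 0.68 to 0.91 for Ccr7 (adjusted p from 9.2e-05 to 0.47), 0.58 to 0.86 for Ccr4 (0.024 to 0.91) and -0.63 to -0.51 for Ccr2 (0.00011 to 0.54). Other scalings moved the median of all tested genes by at most 0.04. Summed marker levels moved by less than their spread between libraries, that of monocytes and macrophages from -0.36 to 0.10 without PBS replicate 2. No paired analysis was possible because the groups share no replicate numbers. Depth limits Ccr9, Cxcr3 and Cxcr4, with 12 to 95 counts per library.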

Other observations

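A list of receptors for lipid and other attractants was also measured. Ltb4r1, the high-affinity leukotriene B4 receptor, was at 557.5, 574 and 486 CPM with PBS and 399, 422 and 412.5 with TNFa, separate between groups (edgeR log2 fold change -0.39 ± 0.10, adjusted p = 0.29). Cysltr1, a cysteinyl leukotriene receptor, was at 405, 366 and 444 CPM with PBS and 388, 350.2 and 365 with TNFa, with overlap (-0.14 ± 0.11, adjusted p = 0.77). Gpr183, the oxysterol receptor, was at 83.3 to 88.9 and 73.4 to 96.5 CPM, and Gpr15, a gut and skin homing receptor, at 2.09 to 3.47 and 1.27 to 5.41. Ptgdr2 (CRTH2), the prostaglandin D2 receptor that is widely used to mark ILC2s, reached at most 0.374 CPM in any library and was listed at 0 in all 3 TNFa libraries and PBS replicate 3. Gpr183, Gpr15 and Ptgdr2 were named after their values were seen. Of the 5 tested genes of this list, 1 was lower at an unadjusted p under 0.05 (20%, against 4.63% of all tested genes). The median log2 fold change was -0.04.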
